A study of Mus musculus with 6 samples.

Results

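The subject is the set of new antisense loci: assembled loci that lie across a known gene on the opposite strand and do not match a known transcript on their own strand. They were taken from the deposited transcript file, in which each transcript carries a code for how it compares with the reference. A locus was a member if at least 1 of its transcripts had the code x, given for exonic overlap with the reference on the opposite strand, and none had a code for a match or a partial match on the same strand (=, j or o). Of 39470 loci, 767 fit this rule, and the 598 with at least 60 counts over all libraries are described here. The member just inside that minimum had 61 counts and the one just outside had 57. Of the 169 members below it, 65 had 0 counts. The RNA was that of pancreatic islets taken from C57BL/6 mice, a common inbred strain, at 14 weeks of age after 8 weeks on either a high fat diet, which makes these mice obese, or a normal diet. Each diet has 3 libraries of total RNA, depleted of ribosomal RNA, made with a stranded kit without poly(A) selection and read as pairs of 100 bases. The labels do not say whether the libraries of a diet are separate animals or pools, so a p-value here covers only the spread among these 6 libraries, which may be technical. The count columns are named ND and HDR, and reading HDR as the high fat diet is an inference from the names on which every direction below depends.

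Antisense transcripts are RNAs made from the strand opposite a gene. Many are long non-coding RNAs that start near the promoter of the gene on the other strand, within its introns or beyond its end, and some are known to lower or raise the output of that gene through its chromatin, its transcription or its RNA. Islets are small organs of endocrine cells, mostly insulin-secreting beta cells with glucagon-secreting alpha cells, and long non-coding RNAs of beta cells are studied as regulators of insulin secretion. Total RNA without poly(A) selection also holds unspliced RNA, so that introns of active genes yield reads.

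The strand of a spliced transcript can be read from the bases at the ends of its introns, which usually begin with GT and end with AG on the strand that is transcribed. These bases could be read for introns of members that end inside an exon of the known gene, through the matching GENCODE M21 transcript (build GRCm38). Windows of 24 bases are shown for pairs with roles in the islet, and for Catsperd and Klf6 as examples of a regular and of a rarer pair of ends. They are written 5′ to 3′ on the strand of the antisense locus, with the first or last 2 bases of the intron in capitals.
XLOC_030893, across Abcc8, intron start: tggtccacccgGTaggcggccgag
XLOC_022457, across Slc2a2, intron end: acacttcgtccAGcaatgatgagg
XLOC_018100, across Ins1, intron start: ccttagttgcaGTagttctccagc
XLOC_018100, across Ins1, intron end: cttgggtgtgtAGaagaagccacg
XLOC_028320, across Calcr, intron end: tgtctttccccAGgaaatgaaggc
XLOC_015577, across Catsperd, intron start: ttctcaatggtGTaagtatagttc
XLOC_015577, across Catsperd, intron end: tgtcatgtcacAGccaactgagat
XLOC_008725, across Klf6, intron start: ttgttttgtccATattatacattg
XLOC_008725, across Klf6, intron end: tcccttggtatACtcctcacacac

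Of 101 intron starts that could be read, in 92 loci, 73 (72.3%) were GT, 16 (15.8%) were GC and 10 (9.90%) were AT. CG and TA were read once each. Of 98 intron ends, in 88 loci, 88 (89.8%) were AG and 10 (10.2%) were AC. TopHat2, named in the submitters' processing notes, places introns where GT is paired with AG, GC with AG or AT with AC, so the aligner itself limits which ends can occur. The CG start, in XLOC_020954 across Vstm2l, and the TA start, in XLOC_026264 across Rbm47, fall outside these pairs. The bases were read on GRCm38 while the loci are placed on mm9, and the reason for these 2 starts was not tested. None of the 1317 introns of members was identical to an intron of the known partner, and 10 shared an end with one. An intron with the ends that the aligner allows has none of those pairs when read on the other strand. The absence of identical introns was thus largely set in advance and says nothing of whether the members are antisense. In 92 members, 145 introns lay wholly within a single exon of the partner. Zc3h3, which encodes a zinc finger protein of mRNA export, had 9 such introns in its antisense locus, and Ins1, an insulin gene, had 3.

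The members were few-exon, long-exon loci. The number of exons in a member's longest chain was 1 in 22 members, 2 in 355 and 3 or more in 221, and 500 of 598 held only transcripts of code x. The longest exon had a median of 6238 bases and a range of 171 to 121306, and in 206 members (34.4%) it was over 10000 bases. The 121306-base exon belonged to XLOC_010457, which is opposite Dach1, a transcription factor gene. Members were spread over the strands, 310 on the plus and 288 on the minus strand. Only 12 matched the structure of a gene in the later GENCODE M21 annotation, among them XLOC_007700 (Ndufb1-ps), XLOC_034734 (Gm15890, opposite Herpud1) and XLOC_017790 (Gm14966, opposite Sf1).

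Each member was set beside a known locus on the other strand, its partner, which was the one with which it shared the most exonic bases. Where no base was shared, the partner was the locus of the nearest reference transcript that the assembly listed. There were 590 partners, of which 546 could be named and 515 were protein coding. By their ends, 189 members lay inside the partner, 112 reached around it, 152 overlapped it tail to tail and 145 head to head. The share of a member's exonic bases in common with the partner had a median of 13.2%, and the share of the partner's had a median of 31.7%. The label of exonic overlap was borne out by the coordinates for 449 members. For the other 149 the ends of the loci overlapped or enclosed each other, but no exonic base was in common. XLOC_030893 is an example that covers nearly all exons of its partner and is longer than most members, which had a median of 7825 exonic bases. Its mm9 position is chromosome 7, 53347078 to 53442244, plus strand, and has 4 exons of 87598 bases in all, the longest of 38188. Only 4911 of these bases (5.61%) were in common with Abcc8, which encodes the sulfonylurea receptor subunit of the ATP-sensitive potassium channel, but they made up 96.6% of the exonic bases of Abcc8.

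**Figure D1:**
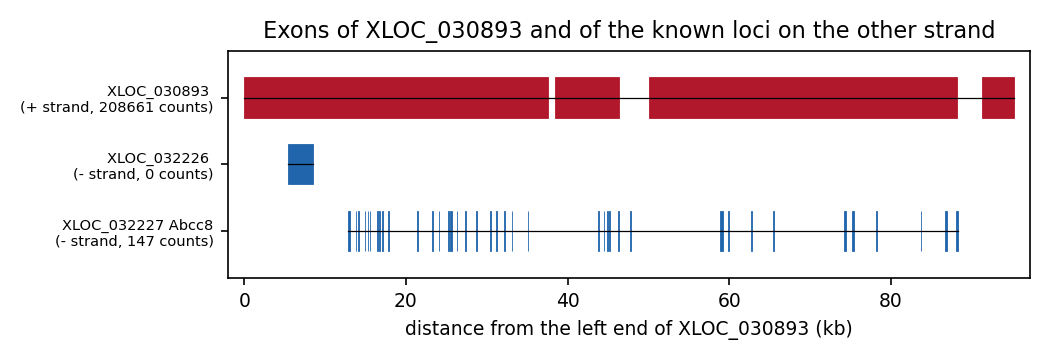
Exons (boxes) of XLOC_030893 and of the known loci on the opposite strand, by distance in kb from the left end of XLOC_030893, with total counts over the 6 libraries. Nearly every exon of Abcc8 falls within the long exons of XLOC_030893, and the counts stand at 208661 for XLOC_030893 against 147 for Abcc8.

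The deposited counts did not separate the strands. All 39 antisense loci and all 468 known loci whose exonic bases were all shared with loci of the opposite strand had 0 counts in every library, whatever the gene. Antisense loci with up to 25% of their bases shared had a median of 286.0 counts per kb, those with 75 to 95% shared had 10.02, and those with 95% to under all shared had 0.62. Known loci ran from 1083 counts per kb to 71.3 and 0.35 over the same classes. Loci with no base shared had lower medians than the first class, 150.3 for antisense and 77.8 for known loci. Per kb of unshared bases the medians also fell, from 331 to 78.5 and 32.3 and from 1203 to 558 and 21.4, for reasons not tested. As the loci with all bases shared show, reads on shared bases were left out on both strands. A member's counts thus come from its private bases, those on no locus of the opposite strand. A median of 90.0% of these private bases lay between the ends of the partner, hence in its introns. In 191 members all of them did, and in 50 members none. Reads there from an antisense transcript and from unspliced RNA of the gene cannot be told apart in these counts, and each level below is that of a stretch of genome rather than of a strand.

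**Figure D2:**
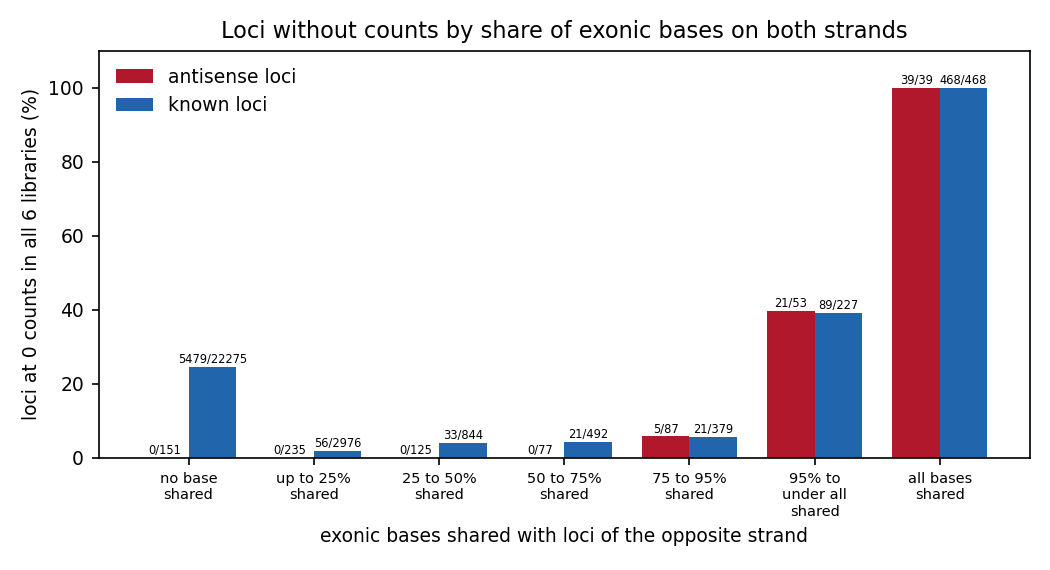
Percentage of loci at 0 counts in all 6 libraries, for antisense loci and known loci, in classes of the share of exonic bases on loci of the opposite strand (numbers above bars give loci at 0 out of all loci). In the class with all bases shared, 39 of 39 antisense and 468 of 468 known loci are at 0.

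This way of counting took known genes out of the table. Of the partners, 47 had every exonic base covered by a member, 43 of them protein coding, and all 47 stood at 0 counts. Another 52 were covered at 95% or more but not in full, of which 15 were at 0 and 35 under 60 counts, with a median of 8. Partners with no base in common with their member had a median of 14768 counts. The genes at 0 included Slc2a2, the glucose transporter of beta cells, Nkx6-1, a transcription factor of beta-cell identity (99.5% covered), Insrr, the insulin receptor-related receptor, Sstr3, a somatostatin receptor, Scgn, which encodes the calcium-binding protein secretagogin, Herpud1 of endoplasmic reticulum protein degradation, and P2ry1, an ADP receptor. Abcc8 kept 147 counts, Bace2, a protease gene expressed in beta cells, kept 198, and Cry2, a circadian repressor gene, kept 235. For these genes a low count says nothing of their expression.

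The libraries held 104657337 to 135353777 counts in loci. The islet label fits the hormone genes, with means of 47280 CPM (counts relative to the library total, TMM-normalised) for Iapp and 21013 for Gcg. The insulin genes stood lower than Gcg, with means of 13862 CPM for Ins2 and 8391 CPM for Ins1. Of the exonic bases of Ins1, 61.6% are shared with the opposite strand and were not counted. High fat library 3 stood apart from the others of its diet on the second principal component (59.4 against -32.3 and -25.5). Acinar markers, 20 of 22 named, took 0.356 to 0.688% of counts on the normal and 0.519 to 1.11% on the high fat diet (exact permutation p = 0.3, two-sided). Alpha-cell markers, 7 of 8 named, took 2.31 to 2.55% and 1.85 to 2.20% (exact permutation p = 0.1, the smallest that 3 against 3 can give). Delta-cell markers (2 of 3 named, 0.00112 to 0.00130% and 0.000718 to 0.000928%) and Schwann-cell markers (5 of 5, 0.00167 to 0.00195% and 0.000822 to 0.00146%) were also lower without overlap, and duct markers (5 of 6, 0.00375 to 0.00427% and 0.00428 to 0.00607%) higher. The delta-cell list was Sst, Hhex and Rbp4, not all of which could be named. At no more than 0.00130% of counts, where Gcg alone had 21013 CPM, its total says little of delta cells. The part of these cell types in the results below was not tested. In bulk RNA, fewer cells of a type and less RNA per cell cannot be told apart.

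Antisense loci were mostly lower on the high fat diet. In the quasi-likelihood test of edgeR, with p-values adjusted over all 23983 loci, 159 of the 598 members (26.6% of those tested) were lower and 8 (1.34%) were higher at an adjusted p under 0.05, and 1 member was not tested for lack of counts. Over all loci tested the shares were 4.86% lower and 5.95% higher. The median log2 fold change was -0.50 for members and -0.05 for all loci, and 483 members were below 0 and 114 above. All high fat libraries were below all normal diet libraries in 325 of the 597 members tested, and above them in 27. Over all 23983 loci tested, they were below in 4889 (20.4%) and above in 4510 (18.8%).

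The number called depended on the libraries and the tool, and the direction of the median did not. Without normal diet library 1, 2 or 3, edgeR called 0 members and 0% of all loci, with lowest adjusted p-values for members of 0.087, 0.060 and 0.083. At an unadjusted p under 0.05, 251, 305 and 305 members were lower in these fits, against 12.1%, 14.9% and 14.9% of all loci. Leaving out high fat library 1, edgeR called 5 lower (0.136% of all loci) and 1 higher (0.377%). Without library 2 it called 3 (0.115%) and 0 (0.225%), and without library 3 it called 209 (7.87%) and 14 (12.4%). The median of members stayed between -0.58 and -0.41 in these 6 fits, but each call named below rests on all 3 normal diet libraries. DESeq2 called 227 lower (7.61%) and 16 higher (9.36%), and edgeR on loci averaging 1 CPM or more 166 (6.75%) and 3 (5.09%). Limma on plain CPM, relative to the library total without TMM, called 274 (13.3%) and 3 (1.29%). The scaled values entered that limma fit, but division by the library total cancels their scaling. With the library number as a replicate block, edgeR called 3 lower (0.0834%) and 0 higher (0.225%).

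The same was seen in the summed level. Members held 6932, 5893 and 5663 CPM in the normal diet libraries and 5033, 4381 and 4817 CPM in the high fat libraries. The groups did not overlap, with means of 6163 ± 676 and 4744 ± 332 CPM (SD, n = 3 each, exact permutation p = 0.1, the smallest possible). The partners held 20224 ± 1498 and 23235 ± 790 CPM, higher on the high fat diet (exact p = 0.1), though as a share of raw counts they stood at 2.17% and 2.16% (exact p = 1.0). Ins1 alone held 7475 and 9307 of these CPM, with overlapping libraries and an edgeR adjusted p of 0.12. The sum therefore does not describe the partners as a set. Members took 0.662% and 0.443% of raw counts (exact permutation p = 0.1). Of 454 partners tested, 21 were higher (5.95% of all loci) and 20 lower (4.86%), and their median log2 fold change was -0.05.

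The 3 members with the highest CPM, not corrected for length, lay across the beta-cell genes Slc2a2, Abcc8 and Ins1. In a list of islet hormones and beta-cell identity genes, of which 30 could be named, 5 had a member, of which 2 fell, that across Abcc8 among them, and none rose. Of the 27 known loci of the list that were tested, 7 were higher and 1 lower, where 5.95% of all loci were higher and 4.86% lower. XLOC_022457, across Slc2a2 (chromosome 3, 28589781 to 28631546, minus strand), came first. It had 621, 618 and 588 CPM on the normal diet and 405, 427 and 557 CPM on the high fat diet. The groups did not overlap, but the log2 fold change of -0.39 (SE 0.12) had an adjusted p of 0.064. Per kb of private bases its mean was 15.2 CPM, where the median of all members was 0.36.

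XLOC_030893, across Abcc8, had 419, 331 and 315 CPM on the normal diet and 235, 206 and 221 CPM on the high fat diet. Every high fat library was below every normal diet library, and the log2 fold change was -0.68 (SE 0.12, adjusted p = 0.021). Per kb of private bases its mean was 3.61 CPM, below that of XLOC_022457. The few bases of Abcc8 left to count, which say little of the gene as a whole, gave 0.12 to 0.29 CPM in the libraries, with a log2 fold change of -0.49 (SE 0.30, adjusted p = 0.30). The log2 ratio of member to partner was 10.5 ± 0.025 in normal diet libraries against 10.3 ± 0.38 in high fat libraries (SD, n = 3 each, exact permutation p = 0.4).

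XLOC_026410, across Nkx6-1 (chromosome 5, 102073498 to 102120735, plus strand), had 17.2, 18.5 and 17.6 CPM on the normal diet and 18.0, 13.2 and 10.8 CPM on the high fat diet. The groups overlap (log2 fold change -0.34, SE 0.17, adjusted p = 0.21). Most of its bases, 78.7%, lie on exons of Nkx6-1, so these counts come from the other 5188 bases. XLOC_018100, around Ins1 (chromosome 19, 52315861 to 52345996, minus strand), had 198, 245 and 219 CPM on the normal diet and 221, 194 and 269 CPM on the high fat diet. Its groups overlap too (log2 fold change 0.05, SE 0.13, adjusted p = 0.83). None of its private bases is inside Ins1, and it shares 627 bases with that gene, 61.6% of the exonic bases of Ins1. Its mean per kb of private bases was 37.0 CPM, the highest of all members but XLOC_013333.

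Of 17 islet transcription factor genes that could be named, 3 had a member and none of these passed. Of the 14 known loci of the list that were tested, 4 were lower (4.86% of all loci). XLOC_026116, across Mnx1, a beta-cell homeobox gene, had 10.4 to 11.8 CPM on the normal and 7.61 to 9.93 CPM on the high fat diet (log2 fold change -0.31, adjusted p = 0.15). XLOC_018115, inside Tcf7l2, an effector of Wnt signalling, had 1.04 to 1.79 and 0.88 to 0.89 CPM (-0.56, adjusted p = 0.15). In both, the ranges of the diets did not overlap.

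Of 21 ion channel genes named, 3 had a member, and 1 of these was lower, as were 4 of the 21 known loci themselves (4.86% of all loci). XLOC_010007, inside Cacna1d, which encodes an L-type calcium channel that opens in insulin secretion, had 5.51, 3.67 and 4.09 CPM on the normal diet. On the high fat diet it had 2.94, 2.45 and 2.55 CPM, all below, which gave a log2 fold change of -0.74 (SE 0.18, adjusted p = 0.041). It has no base in common with Cacna1d, which stood at 77.4 to 88.4 and 75.5 to 79.9 CPM (log2 fold change -0.09, adjusted p = 0.48). The members across Scn3a, a sodium channel gene, and Kcnmb2, a subunit gene of calcium-activated potassium channels, had log2 fold changes of -0.31 (adjusted p = 0.52) and 0.12 (adjusted p = 0.46). No alpha-cell or acinar gene of the lists had a member.

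Some islet genes that were covered in full or nearly so, and named here after their values were seen, differed in what their members did. XLOC_022626, across Insrr, had a mean of 77.6 CPM over the 6 libraries and was lower on the high fat diet (log2 fold change -0.68, adjusted p = 0.029). XLOC_008287, across Scgn, was lower as well (-0.76, adjusted p = 0.027), as was XLOC_013871 across Bace2 (-0.91, adjusted p = 0.023). XLOC_011747, across Sstr3, had a mean of 64.4 CPM and a log2 fold change of -0.02 (adjusted p = 0.90), and XLOC_034734, across Herpud1, had -0.30 (adjusted p = 0.31). Bace2 itself kept 198 counts and the other genes 0.

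Of the 10 largest falls among members past the threshold, 8 were in members with a mean under 2.00 CPM, the median of members. XLOC_004227, inside Emid1, fell by 2.00 on the log2 scale (SE 0.49, adjusted p = 0.040), from 0.160, 0.246 and 0.133 CPM to 0.018, 0.041 and 0.069 CPM, on 81 counts in all. XLOC_019771, opposite 1700025C18Rik, went from 3.59, 2.47 and 2.88 CPM to 1.01, 0.84 and 1.10 CPM (-1.60, SE 0.20, adjusted p = 0.011). XLOC_000332, inside Col6a3, a collagen VI chain gene, went from 3.02, 2.41 and 2.32 CPM to 0.87, 0.59 and 1.10 CPM (-1.59, SE 0.24, adjusted p = 0.019). In each of these 3 members the high fat libraries were all below the normal diet libraries. Members across Zc3h3 (-1.56), Fos, an immediate early gene (-1.31), Hykk, hydroxylysine kinase (-1.29), Calcr, the calcitonin receptor (-1.21), Rasgrf1, a Ras exchange factor gene (-1.20), Vstm2l (-1.19) and Tmem222 (-1.19) completed these 10. The member across Fos had only 227 private bases and 87 counts, and did not pass by DESeq2 or without the filter on low counts.

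Vstm2l shows how unequal the counts of such a pair can be. XLOC_020954 around it had 17.1, 13.5 and 14.4 CPM on the normal and 7.64, 5.49 and 6.62 CPM on the high fat diet (adjusted p = 0.014), while Vstm2l, 80.1% covered, had 3 counts in all. Shared bases are not counted, and 88.9% of the private bases of XLOC_020954 lie between the ends of Vstm2l. These counts therefore do not compare the strands. XLOC_037101, inside Rasgrf1, went from 4.22, 3.34 and 3.68 CPM to 1.93, 1.17 and 1.78 CPM (adjusted p = 0.022). Rasgrf1 had 16.3 to 17.2 and 13.1 to 15.8 CPM (log2 fold change -0.23, adjusted p = 0.18), and the log2 ratio of the pair differed by -0.99 (exact permutation p = 0.1).

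Of the 8 members that rose, 7 had a longest exon under 5000 bases, and 3 had a base in common with their partner. Among all 597 members tested, 52 had a longest exon up to 1000 bases and 208 one over 1000 and up to 5000 bases. A base in common was found in 449 of all 598 members. With only 8 calls, these shares say little. XLOC_028428, inside Svopl, a transporter-like gene, rose by 1.38 on the log2 scale (SE 0.19, adjusted p = 0.016), from 0.352, 0.310 and 0.316 CPM to 0.821, 0.839 and 0.895 CPM. XLOC_008444, at the tail of Auh, an enzyme of leucine breakdown that binds RNA, rose by 1.16 (SE 0.27, adjusted p = 0.036), from 0.144, 0.237 and 0.196 CPM to 0.477, 0.466 and 0.355 CPM. XLOC_015577, inside Catsperd, a sperm calcium channel subunit gene, went from 0.968, 1.30 and 1.21 CPM to 2.35, 2.17 and 2.24 CPM (0.96, SE 0.17, adjusted p = 0.023). In all 3 the groups did not overlap.

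XLOC_015577 has 5 exons and the GT and AG ends shown above. Catsperd had 0.976, 0.994 and 1.05 CPM and then 1.08, 0.890 and 0.887 CPM, and the log2 ratio of the pair was 0.19 ± 0.20 in normal diet libraries against 1.25 ± 0.11 in high fat libraries (SD, n = 3 each, exact permutation p = 0.1). The others that rose were across 3425401B19Rik (0.82), Slc24a2, a sodium-calcium exchanger gene (0.64), the unnamed XLOC_025357 (0.47), P2ry1 (0.44) and the unnamed XLOC_018146 (0.44). XLOC_022550, around P2ry1 (chromosome 3, 60537605 to 60816812, minus strand), had 44.8, 40.7 and 41.8 CPM on the normal and 63.2, 58.9 and 50.4 CPM on the high fat diet (SE 0.10, adjusted p = 0.036). XLOC_017707, opposite XLOC_018146 (chromosome 19, 61227452 to 61262227, plus strand), had 87.8, 84.1 and 87.8 CPM and 117, 117 and 118 CPM (SE 0.071, adjusted p = 0.020). By limma on plain CPM these 5 members did not pass, at 0.45, 0.38, 0.26, 0.23 and 0.23. Nor did those across Slc24a2, XLOC_025357 and P2ry1 among loci averaging 1 CPM or more (0.57, 0.39 and 0.36), or that across Slc24a2 with no filter.

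**Figure D3:**
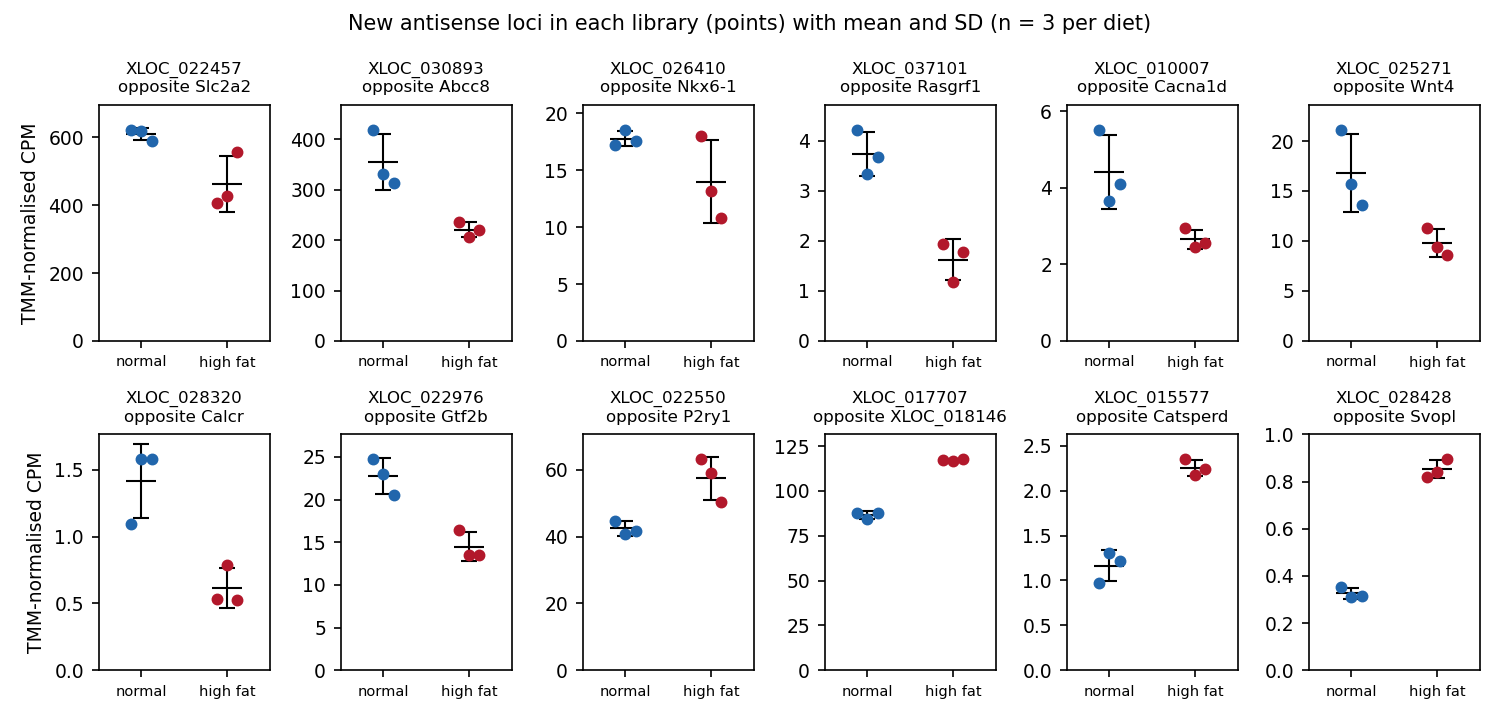
TMM-normalised CPM of 12 antisense loci in each library (points, 3 per diet) with the mean and SD; each panel has its own axis from 0. The high fat libraries lie below the normal diet libraries for the loci across Slc2a2, Abcc8, Rasgrf1, Cacna1d, Wnt4, Calcr and Gtf2b, above them for the loci across P2ry1, XLOC_018146, Catsperd and Svopl, and overlap them for Nkx6-1.

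The 4 members with the most bases in common with a partner were across Wnt4 (21321 bases), Nkx6-1 (19223), Srfbp1 (18430) and Aak1 (17624). XLOC_025271, around Wnt4, a secreted signalling protein gene, had 21.1, 15.7 and 13.7 CPM on the normal and 11.3, 9.40 and 8.58 CPM on the high fat diet. It was lower in every high fat library (-0.78, SE 0.18, adjusted p = 0.034), and Wnt4, 98.9% covered, kept 22 counts. The members across Srfbp1 (-0.66, adjusted p = 0.072) and Aak1, an endocytosis kinase gene (-0.79, adjusted p = 0.066), did not pass although their groups did not overlap.

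Besides those across Slc2a2, Abcc8, Ins1 and XLOC_018146, the 8 most abundant members were across Il1r1, the interleukin 1 receptor gene (XLOC_000898, 0.31, adjusted p = 0.098), Cpsf2, a cleavage and polyadenylation factor gene (XLOC_007700, 0.21, adjusted p = 0.10), Zfp949 (XLOC_037090, 0.07, adjusted p = 0.84) and Cmss1. XLOC_013333, inside Cmss1, varied most among these 8. It had 89.6, 228 and 109 CPM on the normal diet and 411, 174 and 7.16 CPM on the high fat diet, on 656 private bases (259 CPM per kb on average), so the highest and the lowest value both belong to the high fat diet (log2 fold change 0.47, SE 0.97, adjusted p = 0.77). Cmss1 had 6.31 to 6.38 and 6.41 to 8.59 CPM.

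The fall went with long exons and with bases in the partner's introns, classes that were chosen after the values were seen. Over all loci tested, 4.86% were lower and 5.95% higher. With a longest exon up to 1000 bases, 1 of 52 members was lower and 3 were higher, and the median log2 fold change was 0.04. Over 1000 and up to 5000 bases, 17 of 208 were lower and 4 higher (median -0.31). Over 5000 and up to 10000 bases, 30 of 131 were lower and 0 higher (median -0.55), and above 10000 bases 111 of 206 were lower and 1 higher (median -0.66). The median level rose over the same classes from 0.24 and 0.57 to 2.22 and 9.73 CPM, so the shares called also differ in depth. By sign alone, 29 of 52 members with the shortest exons and 10 of 206 with the longest were above 0. Over all loci tested, 10923 of 23983 were above 0. Signs also vary more at low depth, and the part of depth in this trend was not tested. Over the members tested, which share libraries and differ in depth, Spearman's rho between the longest exon and the log2 fold change was -0.38.

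Where the private bases lay showed the same trend, beside the same shares over all loci (4.86% lower and 5.95% higher). With none of them between the partner's ends, 5 of 50 members were lower and 1 higher (median -0.09). With more than 75% but not all of them there, 69 of 174 were lower and 1 higher (median -0.64), and with all of them there 53 of 191 and 3 (median -0.57). The 43 members whose private bases lay outside every known locus had 2 lower and 1 higher, with a median of 0.02. By bases in common with the partner there was less contrast, with medians of -0.47 under 25%, -0.51 from 25 to 75% and -0.56 over 75% (388, 167 and 42 members, of which 111, 44 and 4 were lower). Median log2 fold changes were -0.57 inside the partner, -0.50 around it, -0.47 tail to tail and -0.40 head to head. None of these differences between classes was tested.

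**Figure D4:**
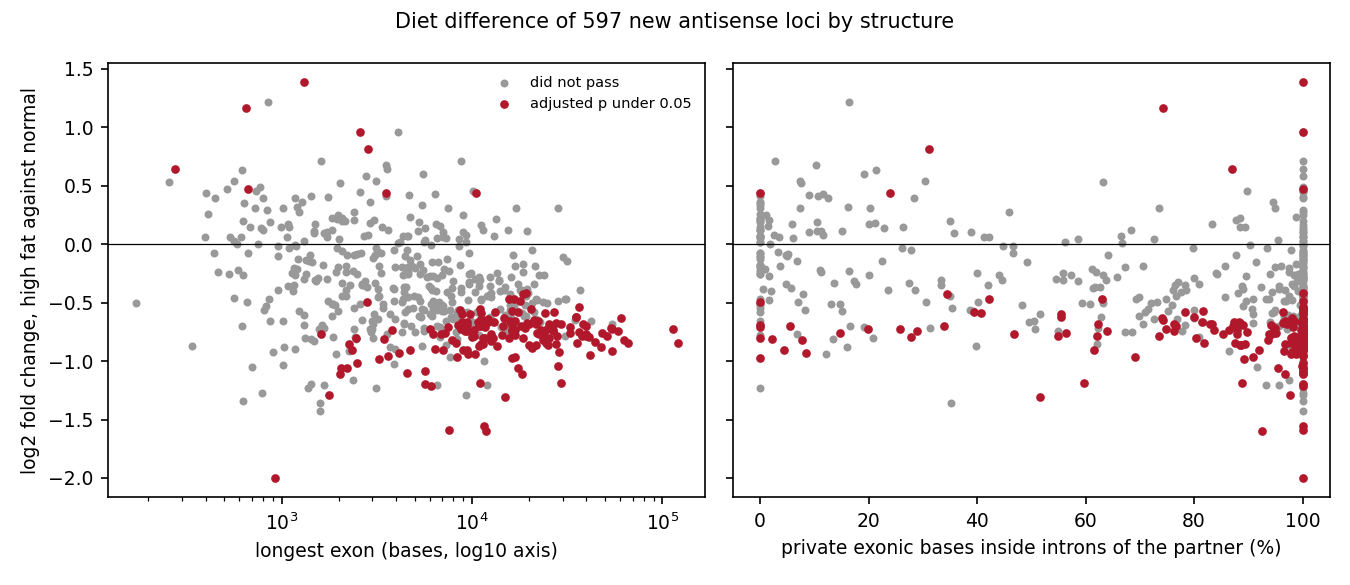
Log2 fold change (high fat against normal diet) of the members tested, against the longest exon on a log10 axis (left) and the percentage of private bases inside introns of the partner (right); red points had an edgeR adjusted p under 0.05. Of the 206 members with a longest exon over 10000 bases, 196 lie below 0.

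By library, the members with a longest exon over 10000 bases had medians of 0.24, -0.11 and -0.12 on the normal diet and -0.52, -0.68 and -0.51 on the high fat diet, as differences in log2(CPM + 0.5) from each member's mean over the normal diet libraries. Normal diet library 1 was thus the highest for long-exon members, and the 3 high fat libraries were all below the 3 normal diet libraries. Among other new loci, coded as intergenic (u only), 91 were lower and 64 higher of 1436 with 2 or more exons (median -0.21). Of 5781 such loci of 1 exon, 280 were lower and 101 higher (median -0.35). Over all loci tested, 4.86% were lower and 5.95% higher.

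Among 461 pairs with both loci tested, the member passed in 28.0% and the partner in 9.11%, where 10.8% of all loci passed. Both passed in 11 pairs (2.39%), close to the product of these shares (2.55%), which takes no account of direction. In 118 pairs only the member passed and in 31 only the partner, and 38 members past the threshold had a partner with too few counts to test. The member's log2 fold change was below the partner's in 354 of 461 pairs, with medians of -0.50 and -0.05. Across pairs, Spearman's rho was 0.25, a description of loci that share libraries and stretches of genome.

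Both loci were lower in 8 pairs and higher in 2, and they moved in opposite directions in 1. The pairs in which both loci fell, some of which are outside the naming rule and were listed after their values were seen, were across Zc3h3, Calcr, Oas2, an antiviral enzyme gene, Klf4, a transcription factor gene, Nptx1, a neuronal pentraxin gene, Dpysl5, Coro2b and Igsf21. Oas2 had a log2 fold change of -1.38 (SE 0.36, adjusted p = 0.045), with -1.10 (SE 0.27, adjusted p = 0.040) for XLOC_026596 beside it. Calcr had 0.472, 0.511 and 0.238 CPM and then 0.203, 0.124 and 0.123 CPM (log2 fold change -1.42, SE 0.37, adjusted p = 0.045), and XLOC_028320 inside it 1.10, 1.58 and 1.58 and then 0.530, 0.787 and 0.524 CPM (adjusted p = 0.027). Their log2 ratio did not differ beyond its spread (0.17, exact permutation p = 0.8). The pairs that rose were Svopl, which went from 2.06, 2.06 and 1.66 CPM to 5.51, 5.88 and 4.50 CPM (1.46, SE 0.17, adjusted p = 0.011), and 3425401B19Rik (0.73, adjusted p = 0.042), which did not pass by limma (0.49) or among loci averaging 1 CPM or more (0.65).

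The opposite pair was Gtf2b, which encodes the general transcription factor TFIIB. XLOC_022976, head to head with it (chromosome 3, 142418592 to 142444192, minus strand), went from 24.7, 23.0 and 20.5 CPM to 16.4, 13.5 and 13.5 CPM (-0.65, SE 0.12, adjusted p = 0.026). Gtf2b went from 31.7, 32.8 and 34.1 CPM to 39.9, 42.0 and 40.3 CPM (0.31, SE 0.083, adjusted p = 0.048). Its call was lost by limma on plain CPM (0.11), among loci averaging 1 CPM or more (0.23) and with no filter (0.30). The diets did not overlap for either locus, and the log2 ratio fell from -0.53 ± 0.19 to -1.50 ± 0.19 (SD, n = 3 each, exact permutation p = 0.1). Of the private bases of XLOC_022976, 74.2% lie in introns of Gtf2b, and the 2 loci have 560 bases in common.

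**Figure D5:**
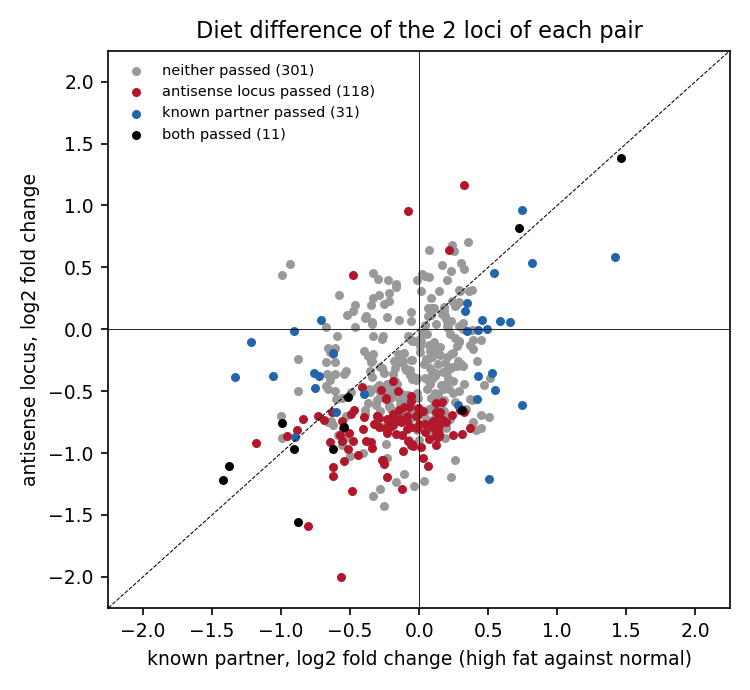
Log2 fold change (high fat against normal diet) of each antisense locus against that of its known partner, for the 461 pairs with both loci tested, coloured by which of them had an edgeR adjusted p under 0.05; the dashed line marks equal change. Of the 118 red points, the pairs in which only the antisense locus passed, 109 lie below the line.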

How the data were processed

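Per the labels' protocols, total RNA was depleted of ribosomal RNA and sequenced with a stranded kit without poly(A) selection. The submitters' processing notes name Cufflinks 2.1.1, TopHat2 2.0.8, edgeR and HTSeq 0.5.4p3, with build mm9; settings, and whether counting used strand, are not given in the sources used here. The authors deposited raw counts per locus, a scaled signal (each count times 1 constant per library: 100% of values were whole reads within 0.001) and the assembled transcripts with strand, coordinates and class codes. Loci were named by matching ordered exon and intron lengths to GENCODE M21 (19579 named), without converting coordinates. A transcript of 1 exon can lack a strand (9284 do), and such loci are not members.

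Counts were analysed with edgeR 4.0.16 in R 4.3.3: filterByExpr, TMM, quasi-likelihood test of diet alone, two-sided, Benjamini-Hochberg adjustment over 23983 loci, threshold 0.05. SE was derived from the test (absolute log2 fold change over the root of F). Ratios of pairs used log2 counts with a prior of 0.5 and an exact permutation test. Named are the up to 10 members per direction with the largest non-overlapping change, the 8 most abundant, the 4 with most bases in common, those across genes of fixed lists, opposite pairs and XLOC_030893; some items that this rule takes are left out of the text. The members and lists were chosen with earlier results of these data known. On simulated counts for 23983 loci, the test found 100% of changes of 4-fold, 84.1% of those of 2-fold and 13.8% of those of 1.5-fold, with 5 false calls of 138. Changes were put only into 200 loci averaging 1 CPM or more, and every locus was drawn at the common dispersion (0.0287). The rates therefore do not cover members below 1 CPM or a library that stands apart.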

Additional observations from a re-analysis of the deposited data

How the results depend on the processing

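The median log2 fold change of members stayed below 0 in every alternative run, from -0.58 to -0.41 when single libraries were left out and at -0.65 among loci with a mean of at least 1 CPM. The counts moved far more. For members, 8 higher and 159 lower became 16 higher by DESeq2, 3 higher among loci of 1 CPM or more on average and 5 higher with code x only. Limma on plain CPM, without TMM, gave 3 higher and 274 lower, with all loci shifted by -0.10 in the median. Leaving out single libraries gave 0 to 14 higher and 0 to 209 lower. A replicate block gave 0 higher and 3 lower (317 members had an unadjusted p under 0.05, against 28.2% of all loci). Same-numbered libraries showed no clear shared deviation (correlations -0.075, 0.075 and -0.014), and different-numbered ones ran from -0.16 to 0.15. With so few libraries these values cannot exclude a pairing. For partners, 21 higher and 20 lower became 37 and 32 by DESeq2, 8 and 59 by limma, 12 higher among loci of 1 CPM or more on average, 3 and 0 with the replicate block, and 0 to 45 and 0 to 38 without single libraries. The cause of these moves was not tested beyond the fewer libraries or loci that each fit holds.

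Signs turned for 4 named members that had not passed: XLOC_013333 (-0.88 by limma, -0.58 with the replicate block, -0.65 to 1.05 without single libraries), XLOC_018100 (-0.16 by limma, -0.0268 with a mean of at least 1 CPM, -0.082 to 0.16), XLOC_037090 (-0.17, -0.0130, -0.13 to 0.26) and XLOC_022467 (-0.085 by limma). They turned for partners near 0: Tcf7l2 (0.013 by DESeq2 and 0.0115 by size factors, -0.14 to 0.15 without single libraries), Kcnmb2 (-0.025 by limma), Mnx1 (-0.19 to 0.0074) and Hykk (-0.25 to 0.033). A simulated 1.5-fold change in loci averaging 1 CPM or more was found in 13.8% of cases, so smaller differences than those named may be missed.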
